A study of Mus musculus with 17 samples.

Results

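The genes of oxidative phosphorylation were taken from a table of normalized read counts of sorted mouse brain myeloid cells. They were the genes whose symbols start with Nduf, Uqcr, Atp5 or mt-, or with Cox4, Cox5, Cox6, Cox7 or Cox8, together with Sdha, Sdhb, Sdhc, Sdhd and Cyc1, without pseudogene names. This rule found 101 of the 13501 gene symbols of the table. Of these, 88 are encoded in the nucleus and 13 in the mitochondrial genome. The choice used names and no measured value. A filter on low values, 10 or more normalized counts in at least 3 libraries, was passed by 86 nuclear and 12 mitochondrially encoded genes. The genes that did not pass were Cox4i2, Cox8b and mt-Nd4l.

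Oxidative phosphorylation is carried out in the inner mitochondrial membrane. Complexes I, III and IV move electrons from NADH to oxygen and pump protons, complex II feeds in electrons from succinate, and complex V uses the proton gradient to make ATP. Most subunits come from nuclear genes and are imported, while a small set of core subunits of complexes I, III, IV and V is made inside the organelle from mitochondrial DNA. Microglia, the resident macrophages of the brain, and other macrophages shift the balance between this pathway and glycolysis when they change state.

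Living CD45+CD11b+ cells were sorted from brain, and their RNA was sequenced after whole-transcript amplification with the SMART-Seq v4 kit. The study asked what replacement of microglia by cells of bone marrow origin does in mice with and without Trem2, a receptor of microglia and macrophages that senses lipids. The 5xFAD transgenes make brain amyloid. The group of Trem2 KO transplanted cells (4 libraries) held circulation-derived myeloid cells, labelled Trem2-knockout, from Trem2-knockout 5xFAD hosts that had received bone marrow and PLX5622, a CSF1R inhibitor that removes microglia. The group of Trem2 WT transplanted cells (4 libraries) held Trem2-wildtype cells from hosts of the same genotype and treatment. Untreated 5xFAD Trem2 KO microglia, untreated 5xFAD Trem2 WT microglia and untreated normal microglia, which were wild type and had no 5xFAD transgene, had 3 libraries each. Both transplanted groups thus share the Trem2-knockout host, marrow and PLX5622, and no library holds treated cells from a Trem2-wildtype host. The sort keeps CD45+CD11b+ cells of any origin, so any host cells of this kind that remained would be in the transplanted libraries too. Ages and sexes are not given in the labels, and nothing says that replicates are separate animals, so p-values measure the spread between these libraries.

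Sequences are shown for genes whose values are described further on. The promoters come from RefSeq (GRCm38.p6) and run from 250 bases before to 50 bases after the start of the gene, 5′ to 3′ on the strand of the gene. Sdha, the catalytic subunit of complex II, and Cox8a, the ubiquitous isoform of a small complex IV subunit, were both higher in Trem2 WT transplanted cells than in 5xFAD Trem2 KO microglia, and Ndufa1, an accessory subunit of complex I, was higher in 5xFAD Trem2 WT microglia than in normal microglia. Capitals mark matches to the motif of NRF1 (GCGC, then any base, then TGCGC) or of GABPA (CCGGAAGT), activators of respiratory genes, on either strand. Sdha lies at chr13:74350191-74350490 (minus strand, promoter window) and has 3 NRF1 matches, Cox8a at chr19:7217567-7217866 (minus strand) has 2 GABPA matches, and Ndufa1 at chrX:37191189-37191488 (minus strand) has neither. The last sequence is a stretch of mt-Atp6, a subunit of complex V, at chrM:7927-8001 (GRCm38, plus strand, from the GENCODE vM21 transcript), shown because the same 75 bases stand in Gm10925, an unprocessed pseudogene on chromosome 1.
Sdha promoter: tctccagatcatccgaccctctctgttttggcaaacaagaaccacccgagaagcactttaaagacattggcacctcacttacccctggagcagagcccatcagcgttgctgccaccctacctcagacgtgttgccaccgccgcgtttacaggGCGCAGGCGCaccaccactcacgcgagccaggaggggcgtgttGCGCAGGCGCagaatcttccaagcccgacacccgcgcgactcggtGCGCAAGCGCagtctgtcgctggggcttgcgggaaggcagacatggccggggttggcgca
Cox8a promoter: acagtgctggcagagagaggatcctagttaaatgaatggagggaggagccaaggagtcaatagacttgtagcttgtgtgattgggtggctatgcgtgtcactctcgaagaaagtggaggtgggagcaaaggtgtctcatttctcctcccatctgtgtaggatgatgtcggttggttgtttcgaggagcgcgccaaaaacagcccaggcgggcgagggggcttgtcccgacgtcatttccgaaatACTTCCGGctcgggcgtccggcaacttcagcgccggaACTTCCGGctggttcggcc
Ndufa1 promoter: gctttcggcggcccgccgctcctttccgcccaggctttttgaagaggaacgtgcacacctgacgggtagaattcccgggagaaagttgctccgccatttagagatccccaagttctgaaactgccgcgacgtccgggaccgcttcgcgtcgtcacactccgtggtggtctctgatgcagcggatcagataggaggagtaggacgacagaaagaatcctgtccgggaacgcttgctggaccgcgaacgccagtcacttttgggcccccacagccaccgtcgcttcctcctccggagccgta
mt-Atp6 stretch: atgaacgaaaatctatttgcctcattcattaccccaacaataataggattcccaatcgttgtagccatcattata

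Of the 88 nuclear genes, 72 matched the promoter table by symbol. The NRF1 motif was found in 19 of them (26.4%), against 5.19% of 27025 genes in the table. The GABPA motif was found in 5 (6.94%, against 4.31%). The motif of PU.1 (GAGGAAGT), a myeloid factor, was found in 3 (4.17%, against 3.69%), and TATAAA in 6 (8.33%, against 15.7%). All motifs were searched on both strands, and a match may overlap another. Atp5h, a stalk subunit of complex V, held both NRF1 and GABPA matches.

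The libraries held between 16044078 and 30606394 reads, recovered from the normalized counts. Trem2 was at 3962 to 5211 normalized counts in Trem2 KO transplanted cells, 37066 to 53908 in Trem2 WT transplanted cells, 4367 to 5965 in 5xFAD Trem2 KO microglia, 49346 to 53077 in 5xFAD Trem2 WT microglia and 31205 to 37459 in normal microglia. Every library labelled knockout thus lay below every library labelled wild type. A total over the gene does not show which part was deleted. All 10 microglial markers of a list were detected in every library, and Sall1, which separates microglia from other macrophages, was at 87.3 to 309 in Trem2 KO and 98.9 to 251 in Trem2 WT transplanted cells, against 3419.9 to 9289, 5765 to 6317 and 8386 to 8731 in the 5xFAD Trem2 KO, 5xFAD Trem2 WT and normal microglia. Libraries are named by the numbers of their columns: S32 to S35 for Trem2 KO and S28 to S31 for Trem2 WT transplanted cells, S25 to S27 for 5xFAD Trem2 KO, S22 to S24 for 5xFAD Trem2 WT and S20, S21 and S36 for normal microglia, and values are listed in this order. S25 and S27 stood apart from S26 among the 5xFAD Trem2 KO microglia: 11 neutrophil markers took 0.696% and 0.737% of their reads, against 0.245% in S26. S30 and S31 stood apart from S28 and S29 among the Trem2 WT transplanted cells: 10 oligodendrocyte markers took 0.103% and 0.106% of their reads, against 0.0336% and 0.0497%. Most results that rest on these 4 libraries are given with and without them, but the interaction is not given without S30 and S31. S25 with S27, S30 with S31, and S22 with S23 (5xFAD Trem2 WT microglia) were also closer to each other in read counts than other pairs of their groups (chi-square per degree of freedom 9.615, 4.919 and 6.106, against 14.99 to 129.8), which still exceeds sampling noise.

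Levels between genes are compared per length. Per kilobase of the longest coding transcript, Cox4i1, the ubiquitous isoform of complex IV subunit 4, had mean levels of 8619, 11262, 9254, 7442 and 5837 normalized counts in Trem2 KO transplanted cells, Trem2 WT transplanted cells, 5xFAD Trem2 KO microglia, 5xFAD Trem2 WT microglia and normal microglia. Atp5b, the catalytic beta subunit of complex V, had 7725, 9187, 7536, 7776 and 7261 in the same order. At the low end stood the tissue isoforms, with Cox7a1, a muscle isoform, at 5.68, 29.2, 10.98, 12.98 and 4.90 and Cox8b listed at 0 in both Trem2 KO transplanted cells and 5xFAD Trem2 WT microglia. The nuclear genes took 0.680% to 0.982% of the reads of a library and the mitochondrially encoded genes 0.0579% to 0.257%. S27 was highest for the nuclear genes and S25 for the mitochondrially encoded genes.

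Core subunits of complexes I, III and V were set side by side over the 5 groups. Ndufs1, the largest subunit of the electron-accepting arm of complex I, had 1384 to 1731 normalized counts in Trem2 KO transplanted cells, 1271 to 1524 in Trem2 WT transplanted cells, 1336 to 1543 in 5xFAD Trem2 KO microglia, 1273 to 1486 in 5xFAD Trem2 WT microglia and 1206 to 1359 in normal microglia. Ndufv1, which binds NADH, had 1362 to 1652, 1568 to 2416, 1654 to 1748, 1537 to 1651 and 1635 to 1743 in the same order. Cyc1, the cytochrome c1 of complex III, had 2065 to 2794, 2508 to 3525, 2236 to 2898, 2595 to 2633 and 2815 to 3061. For Ndufs1 the Trem2 KO transplanted cells lay above normal microglia and all other pairs of groups overlapped, for Ndufv1 5xFAD Trem2 KO microglia lay just above both Trem2 KO transplanted cells and 5xFAD Trem2 WT microglia, and for Cyc1 both Trem2 KO transplanted cells and 5xFAD Trem2 WT microglia lay below normal microglia. None of these genes, nor Uqcrc1, a core subunit of complex III, was called in any comparison. Uqcrc1 had 5843 to 6894, 5763 to 9459, 6887 to 7105, 6080.2 to 6269.8 and 5856 to 6524, and Atp5a1, the alpha subunit of complex V, had 10510.0 to 11143, 10848 to 12946, 9468 to 10064, 9599 to 10215 and 9990.2 to 10226. For Atp5a1 the Trem2 WT transplanted cells reached the highest values and overlapped with the Trem2 KO transplanted cells only.

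**Figure D1:**
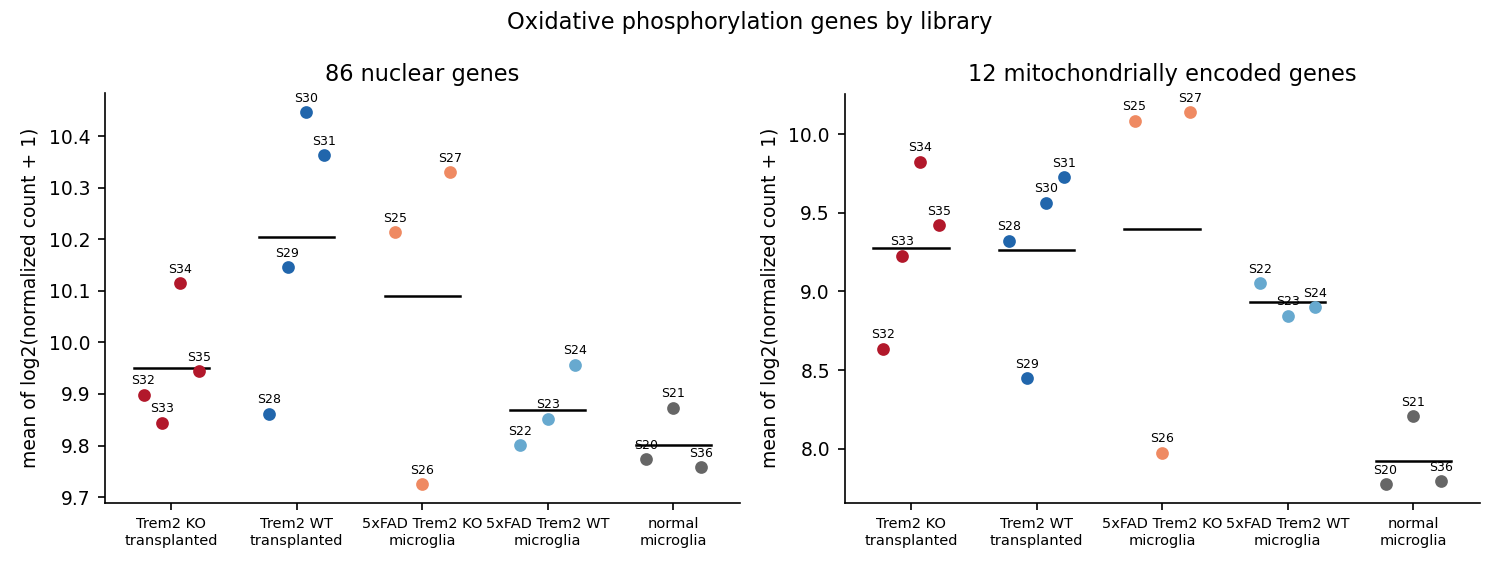
Mean of log2(normalized count + 1) over the 86 nuclear genes (left) and the 12 mitochondrially encoded genes (right) that passed the filter, 1 point per library and a bar at each group mean, with group names on the x axis. The 3 normal libraries lie between 7.78 and 8.21 for the mitochondrially encoded genes, below the 3 libraries of 5xFAD Trem2 WT microglia, and S26 lies well below S25 and S27 in both panels.

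The mean of log2(normalized count + 1) over the 86 nuclear genes was 9.84 to 10.11 in Trem2 KO transplanted cells, 9.86 to 10.45 in Trem2 WT transplanted cells, 9.73 to 10.33 in 5xFAD Trem2 KO microglia, 9.80 to 9.96 in 5xFAD Trem2 WT microglia and 9.76 to 9.87 in normal microglia. Over the 12 mitochondrially encoded genes it was 8.64 to 9.82, 8.45 to 9.72, 7.97 to 10.14, 8.84 to 9.05 and 7.78 to 8.21 in the same order. The plot of both means by library shows that the nuclear groups overlap, and that normal microglia lie below 5xFAD Trem2 WT microglia for the mitochondrially encoded genes. Within groups the spread followed the libraries named above: S25 and S27 were at 10.21 and 10.33 for the nuclear genes, against 9.73 in S26, and S30 and S31 were at 10.45 and 10.36, against 9.86 and 10.15 in S28 and S29. Differences are those of the first named group minus the second on the log2(value + 1) scale, which understates the change of low genes, from 1 limma fit to all libraries, and a gene was called at an adjusted p under 0.05 over all 12074 genes tested.

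The first comparison set 5xFAD Trem2 WT microglia against normal microglia. The nuclear genes of the pathway had a median log2 difference of 0.02, against 0.00 over all genes tested. Of 86 nuclear genes 2 rose and 0 fell, where 2.83% of all genes were called higher and 0.952% lower. The risers were a complex IV isoform and an accessory subunit of complex I. All 12 mitochondrially encoded genes had higher means in 5xFAD Trem2 WT microglia, with a median of 1.03, and 0 passed the test.

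Cox6a2 is the isoform of complex IV subunit 6a that is typical of heart and skeletal muscle. It had 529.6, 628 and 710.4 normalized counts in 5xFAD Trem2 WT microglia, against 55.3, 86.6 and 62.3 in normal microglia. All 5xFAD Trem2 WT libraries were far above all normal libraries. It rose 9.13-fold (log2 difference 3.19, SE 0.41, adjusted p = 1.05e-04), and the call held without any single library. Its ubiquitous partner Cox6a1 had 3009.8, 3347 and 3046 in 5xFAD Trem2 WT microglia, against 2471, 2315 and 2205 in normal microglia, and did not pass (log2 difference 0.43, SE 0.16, adjusted p = 0.179). In bulk samples, more cells of a type and more RNA per cell cannot be told apart. Cox6a2 (chr7:128205435-128206387, minus strand, GRCm38) lies inside the span of Itgad (chr7:128154376-128223816, plus strand), and this library type does not mark strand. Itgad itself was at 14.7 to 23.4 in 5xFAD Trem2 WT microglia and 3.01 to 8.56 in normal microglia, a small part of the Cox6a2 value.

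Ndufa1 had 1227, 1192 and 1498 normalized counts in 5xFAD Trem2 WT microglia, against 677, 776 and 605 in normal microglia. The groups did not overlap. It rose 1.90-fold (log2 difference 0.93, SE 0.22, adjusted p = 0.0226). The call was lost without S22, S23, S24, S20 or S36 in turn, with log2 differences between 0.82 and 1.02 over the 6 fits and an adjusted p of up to 0.111. By class, the median log2 difference was -0.12 over 7 core subunits of complex I, 0.01 over 29 accessory subunits, -0.12 over 7 assembly factors, -0.16 over 4 genes of complex II, 0.03 over 9 of complex III, 0.13 over 16 of complex IV and 0.10 over 14 of complex V. Complexes I (core), II and the assembly factors thus had medians just below 0 and the rest just above it.

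Among the mitochondrially encoded genes, mt-Cytb, the cytochrome b of complex III, had 6554, 5923 and 6147 normalized counts in 5xFAD Trem2 WT microglia, against 2312, 3213 and 2761 in normal microglia (log2 difference 1.18, SE 0.38, adjusted p = 0.105). mt-Co1, the catalytic subunit of complex IV, had 9588, 7993 and 10115, against 5017, 5844 and 3839 in normal microglia (log2 difference 0.93, SE 0.33, adjusted p = 0.152). mt-Nd1 of complex I had 5158, 4243 and 4394, against 2174, 3260.0 and 1863 in normal microglia (log2 difference 0.95, SE 0.43, adjusted p = 0.278). In all 3 genes every 5xFAD Trem2 WT library was above every normal library. The same held for 11 of the 12 genes, where 16.7% of all genes tested did so. With limma, 8 of the 12 had an unadjusted p under 0.05 and 0 were called, edgeR on the recovered reads called 0 and DESeq2 called 1. The share of all genes at an unadjusted p under 0.05 is not given, here or for the later comparisons, so these counts have no background to stand beside. A fit to these 2 groups alone called 9, where 1757 of all 12074 genes were called. The difference in means held without any single library (median 0.96 to 1.16). Markers of endothelium moved with it: 2 of 10 were called higher, they summed to 0.0104 to 0.0117% of reads in 5xFAD Trem2 WT microglia against 0.00514 to 0.00830% in normal microglia, and Tek and Slco1a4 were at 0 in S36. Of 11 neutrophil markers 4 were called lower, with a sum of 0.0221 to 0.0275% in 5xFAD Trem2 WT microglia, against 0.0455 to 0.0960% in normal microglia, and none at 0. Their part in the result was not tested.

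5xFAD Trem2 KO microglia were next set against 5xFAD Trem2 WT microglia, the comparison for Trem2 in resident cells. Of 86 nuclear genes 1 rose and 0 fell, where 2.5% of all genes were called higher and 2.59% lower. The riser was Cox6b2, the testis-type isoform of complex IV subunit 6b. It had 47.3, 14.2 and 53.1 normalized counts in S25, S26 and S27 of the 5xFAD Trem2 KO microglia, against 4.91, 12.1 and 11.7 in 5xFAD Trem2 WT microglia (log2 difference 1.78, SE 0.45, adjusted p = 0.0283). The groups did not overlap, but S26 was close to the 5xFAD Trem2 WT libraries, and the call was lost without S25, S27 or S22 (adjusted p up to 0.17). Its ubiquitous partner Cox6b1 had 2666, 1833 and 2977 in the same libraries, against 2199, 2283 and 2361 in 5xFAD Trem2 WT microglia.

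The nuclear median was 0.24 and the mitochondrially encoded median 0.38, against -0.01 over all genes. Both rested on S25 and S27. mt-Nd1 had 9792, 2558 and 9911 normalized counts in S25, S26 and S27, against 5158, 4243 and 4394 in 5xFAD Trem2 WT microglia. S26 was the lowest of these 6 libraries and S25 and S27 were the highest. Without S26 the test called 31 nuclear genes higher and 1 lower and 7 mitochondrially encoded genes higher. In that fit 3666 of all 12074 genes were called in either direction. Without S25 and S27 only S26 was left of the 5xFAD Trem2 KO microglia, and the medians were -0.08 (nuclear) and -0.93 (mitochondrially encoded). With all libraries 1 of the 12 mitochondrially encoded genes had an unadjusted p under 0.05 and 0 were called by limma, 0 by edgeR and 1 by DESeq2.

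Markers of other cells moved with this split. Of 11 neutrophil markers 9 were called higher in 5xFAD Trem2 KO microglia, and none was at 0 in any library of either group. They summed to 0.696%, 0.245% and 0.737% of reads in S25, S26 and S27, against 0.0221 to 0.0275% in 5xFAD Trem2 WT microglia. Of the 9 tested monocyte markers 8 were called higher, and they summed to 0.0405 to 0.104%, against 0.0100 to 0.0111%, with Vcan at 0 in S22. Their part in the result was not tested.

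Cox6a2 did not pass in this comparison. It had 481, 126 and 535 normalized counts in S25, S26 and S27, against 529.6, 628 and 710.4 in 5xFAD Trem2 WT microglia (log2 difference -0.95, SE 0.41, adjusted p = 0.188). S26 was far below the 5xFAD Trem2 WT libraries and S27 was just above the lowest of them. Sdha had 5114, 5599 and 4994 in 5xFAD Trem2 KO microglia, against 6449, 6152 and 5737 in 5xFAD Trem2 WT microglia, without overlap and without passing the test (log2 difference -0.22, SE 0.10, adjusted p = 0.192). Complex II thus ran apart from the rest, with a class median of -0.06, while the class medians of the other complexes and of the complex I assembly factors lay between 0.08 (complex I core) and 0.29 (assembly factors).

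Against normal microglia, which also served in the first comparison, 5xFAD Trem2 KO microglia had 2 nuclear genes higher, 0 lower and 2 mitochondrially encoded genes higher, where 2.7% of all genes were called higher and 1.21% lower. Cox6a2 rose 4.72-fold (log2 difference 2.24, SE 0.41, adjusted p = 0.00817), although its values of 481, 126 and 535 in S25, S26 and S27 were widely spread above the normal values of 55.3, 86.6 and 62.3. Uqcr10, a small subunit of complex III, had 1427, 1068 and 1522, against 758, 868 and 843 in normal microglia (log2 difference 0.69, SE 0.18, adjusted p = 0.0422). mt-Co2, which takes up electrons from cytochrome c, had 287, 83.2 and 254, against 66.3, 51.4 and 49.8 in normal microglia (log2 difference 1.70, SE 0.42, adjusted p = 0.0361). These groups did not overlap. mt-Nd3 of complex I had 168, 30.6 and 182, against 14.1, 20.9 and 23.8 in normal microglia (log2 difference 2.30, SE 0.58, adjusted p = 0.0388), again without overlap. All 4 calls were lost without S25 and without S27, those of Uqcr10, mt-Co2 and mt-Nd3 also without S20, S21 or S36 (adjusted p up to 0.253), and the mitochondrially encoded median was 0.10 without both S25 and S27, against 1.45 with all libraries. mt-Co2 and mt-Nd3 are also among the genes whose sequence is shared with nuclear pseudogenes. Of 11 neutrophil markers 9 were called higher, with sums of 0.245 to 0.737% of reads in 5xFAD Trem2 KO microglia, against 0.0455 to 0.0960% in normal microglia and none at 0, and their part in the result was not tested.

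**Figure D2:**
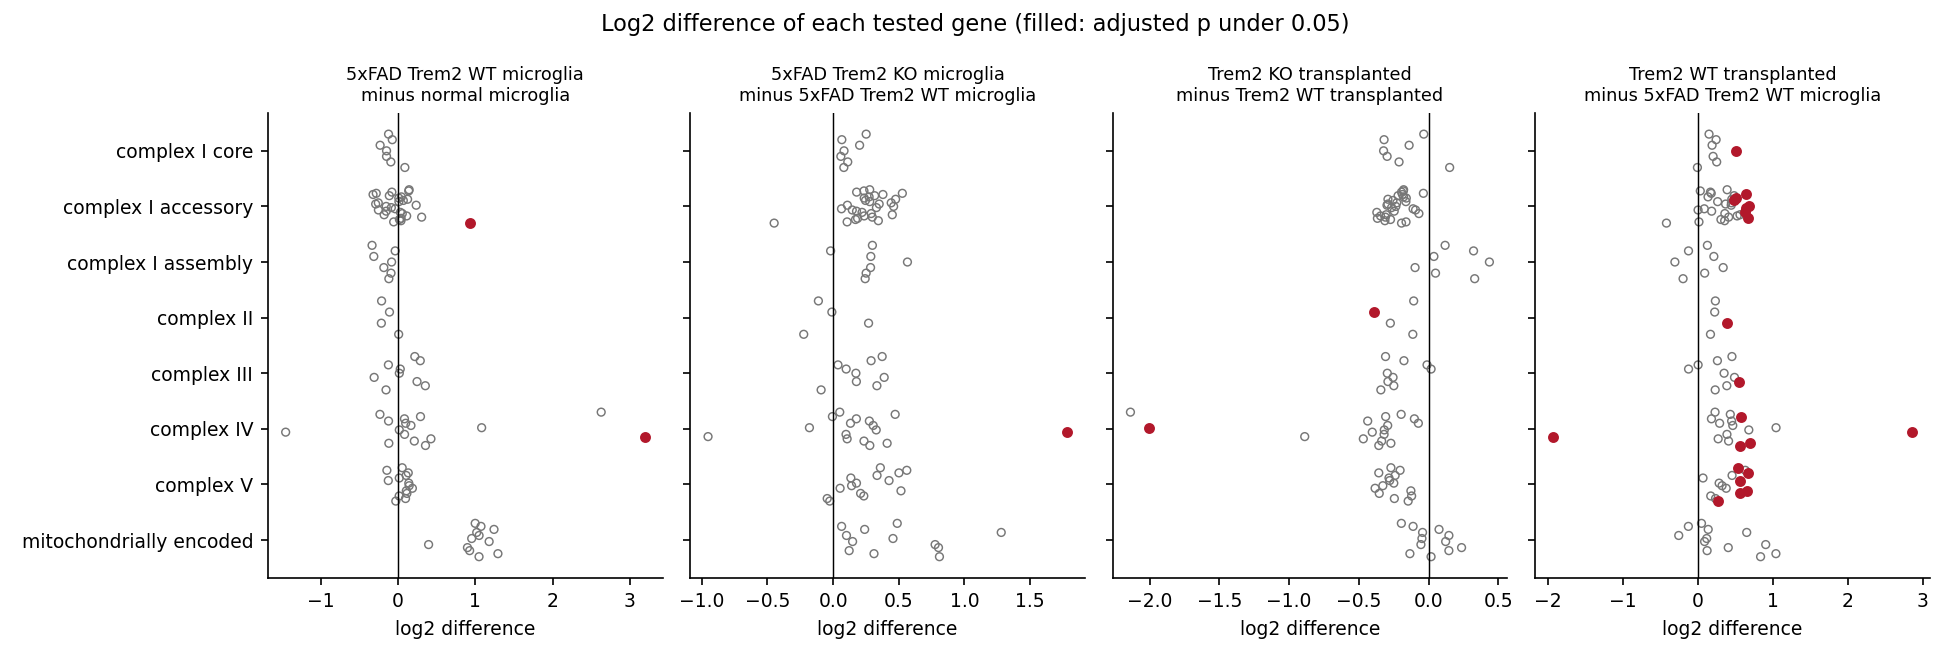
Log2 difference of each tested gene (x axis) by class (y axis) in 4 comparisons, with the first group named in a panel title minus the second. Filled points have an adjusted p under 0.05, and in the panel of Trem2 WT transplanted cells minus 5xFAD Trem2 WT microglia 20 nuclear genes are filled to the right of 0 while Cox6a2 lies at -1.93.

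Trem2 KO transplanted cells were then set against Trem2 WT transplanted cells, the comparison for Trem2 in cells of marrow origin. Of 86 nuclear genes 0 rose and 2 fell, where 2.99% of all genes were called higher and 3.75% lower. The nuclear median was -0.25 and 78 of 86 genes had negative differences, against -0.05 over all genes. Of the mitochondrially encoded genes 6 had positive and 6 negative differences (median -0.01). All 14 genes of complex V, 16 of complex IV and 29 accessory subunits of complex I had negative differences, while 6 of the 7 assembly factors of complex I had positive ones (median 0.12). Of the nuclear genes 6 were lower without overlap, where 7.74% of all genes were. With limma 0 of 12 mitochondrially encoded genes had an unadjusted p under 0.05 and 0 were called, and edgeR and DESeq2 called 0 each.

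Cox7a1, the heart and skeletal muscle isoform of complex IV subunit 7a, had 2.90, 1.87, 2.13 and 4.12 normalized counts in Trem2 KO transplanted cells, against 13.4, 12.5, 21.03 and 9.76 in Trem2 WT transplanted cells. The groups did not overlap, and the values rest on few reads, since 1 read was worth 0.651 to 1.31 normalized counts. It fell (log2 difference -2.002, SE 0.51, adjusted p = 0.0295). Sdhc, a membrane anchor of complex II, had 1102, 1161, 1214 and 1143 in Trem2 KO transplanted cells, against 1231, 1711, 1656 and 1509 in Trem2 WT transplanted cells, without overlap. It fell too (log2 difference -0.39, SE 0.11, adjusted p = 0.0417). Neither call held without S33, S34, S30 or S31, with adjusted p of up to 0.111 for Cox7a1 and 0.148 for Sdhc, and that of Sdhc was also lost without S32, S35 or S29.

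S30 and S31 set much of the nuclear difference. Without both, the median was -0.04 and 0 genes were called, where 20 of all 12074 genes were. Without S28 the test called 19 genes lower, where 1881 of all genes were called in either direction. Atp5d, the delta subunit of complex V, had 2348, 2492, 2175 and 2389.5 in Trem2 KO transplanted cells, against 2825, 2501, 3509 and 3275 in S28, S29, S30 and S31 (log2 difference -0.35, SE 0.11, adjusted p = 0.0558). S30 and S31 were the highest and the lowest Trem2 WT library was just above the highest Trem2 KO library. Of the 10 oligodendrocyte markers 6 were called lower in Trem2 KO transplanted cells. They summed to 0.0219 to 0.0302% of reads there, against 0.0336 to 0.106% in Trem2 WT transplanted cells, with Cldn11 at 0 in all 4 Trem2 KO libraries, Mog in S32 and S34, Opalin in S33, S34 and S28, Ermn in S33 and S28 and Mal in S34. Of 10 microglial markers 2 were called higher, and their sum was 2.94 to 3.58% of reads in Trem2 KO transplanted cells, against 2.58 to 3.00% in Trem2 WT transplanted cells. Their part in the result was not tested.

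The broadest change was in Trem2 WT transplanted cells against 5xFAD Trem2 WT microglia. Of 86 nuclear genes 20 rose and 1 fell, where 13.6% of all genes were called higher and 14.6% lower. The nuclear median was 0.35, against -0.03 over all genes, and 28 nuclear genes were higher without overlap, where 19.9% of all genes were. The mitochondrially encoded median was 0.13, with 0 of 12 at an unadjusted p under 0.05 and 0 called by limma, edgeR or DESeq2.

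In complex I, 1 of 7 core subunits, 7 of 29 accessory subunits and 0 of 7 assembly factors rose. The core subunit was Ndufs7, which carries the last iron-sulfur cluster before ubiquinone (log2 difference 0.52, SE 0.16, adjusted p = 0.0185). Ndufb10, an accessory subunit of the membrane arm, had 1495, 1649, 2138 and 2066 normalized counts in Trem2 WT transplanted cells, against 1109, 1289.5 and 1109.5 in 5xFAD Trem2 WT microglia (log2 difference 0.64, SE 0.14, adjusted p = 0.00262). Ndufb11, also of the membrane arm, had 1183, 1352, 2025 and 1806, against 979, 1013 and 907 in 5xFAD Trem2 WT microglia (log2 difference 0.69, SE 0.17, adjusted p = 0.00534). In both genes all Trem2 WT transplanted libraries were higher, S30 and S31 most of all. The other accessory risers were Ndufa7, Ndufc2, Ndufb6, Ndufa13 and Ndufb8, with log2 differences between 0.48 (Ndufb6) and 0.67 (Ndufa13). Ndufb6 (with Smim27) and Ndufa13 (with Tssk6) share 31.3% and 25.6% of their 75-base windows with a neighbouring gene, so their counts are uncertain.

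In complex II, Sdhb, the iron-sulfur subunit, rose (log2 difference 0.39, SE 0.12, adjusted p = 0.0169) and the other 3 genes did not pass. In complex III the riser was Uqcr11, a small subunit (log2 difference 0.55, SE 0.17, adjusted p = 0.0179). In complex V, Atp5d, Atp5h, Atp5o, Atp5a1, Atp5k and Atp5e rose, 6 of 14 genes, with log2 differences from 0.28 (Atp5a1) to 0.67 (Atp5k, a small subunit of the membrane part). Atp5d had 2825, 2501, 3509 and 3275 normalized counts in Trem2 WT transplanted cells, against 2017, 2142 and 1966 in 5xFAD Trem2 WT microglia (log2 difference 0.56, SE 0.12, adjusted p = 0.00144), without overlap. Atp5h and Atp5o, stalk subunits, share 36.5% and 39.1% of their windows with other annotated transcripts, and Cox5a of complex IV shares 21.7%.

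Among the tested nuclear genes the largest differences in both directions were in complex IV. Cox6b2 had 69.3, 73.9, 90.7 and 53.7 in Trem2 WT transplanted cells, against 4.91, 12.1 and 11.7 in 5xFAD Trem2 WT microglia, a rise of 7.21-fold (log2 difference 2.85, SE 0.42, adjusted p = 5.09e-05). Cox6a2 had 105, 200.1, 193 and 167, against 529.6, 628 and 710.4 in 5xFAD Trem2 WT microglia, and fell (log2 difference -1.93, SE 0.38, adjusted p = 9.15e-04). Neither pair of groups overlapped, and neither call depended on any single library. Cox5a, which has no tissue isoform in mammals, had 1204, 1268, 1759 and 1556, against 846, 918 and 895 in 5xFAD Trem2 WT microglia (log2 difference 0.69, SE 0.15, adjusted p = 0.00156). Cox8a (log2 difference 0.57, SE 0.16, adjusted p = 0.0119) and Cox4i1 (log2 difference 0.57, SE 0.18, adjusted p = 0.0271) rose as well.

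Of the 21 calls, 7 held without any single library: Atp5d, Cox5a, Cox6a2, Cox6b2, Ndufa7, Ndufb10 and Ndufb11. The test called 10 nuclear genes without S30, 11 without S31, 8 without S22, 11 without S23 and 47 without S28, and without both S30 and S31 it called 3 higher and 2 lower with a median of 0.13, keeping 4 of the 21. With the closest libraries averaged and counted as 1, it called 6. Over all 12074 genes the calls were 2776 without S30, 2828 without S31, 2395 without S22, 2526 without S23 and 3742 without S28. They were 2302 without both S30 and S31 and 2013 with the closest libraries averaged. Of the 10 oligodendrocyte markers 3 were called higher, and their sum was 0.0336 to 0.106% of reads in Trem2 WT transplanted cells, against 0.0314 to 0.0416% in 5xFAD Trem2 WT microglia, with Ermn and Opalin at 0 in S28 and S22, and Cldn11 and Opalin in S24. Of 10 microglial markers 8 were called lower in Trem2 WT transplanted cells, and of 11 neutrophil markers 9 were called higher, with sums of 2.58 to 3.00% and 0.0749 to 0.0866% of reads, against 5.44 to 5.70% and 0.0221 to 0.0275% in 5xFAD Trem2 WT microglia. Of 11 T and NK cell markers 9 were called higher, and they summed to 0.00186 to 0.0144%, against 0.000953 to 0.00170%, with Cd8a and Cd8b1 at 0 in S24 and Mpo and Elane of the neutrophil list at 0 in S29. Their part in the result was not tested.

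Transplanted cells were also set against 5xFAD Trem2 KO microglia, which share the host genotype. Both comparisons use the same 3 microglia libraries. In Trem2 KO transplanted cells 1 of 86 nuclear genes rose and 1 fell, where 11.7% of all genes were called higher and 13.7% lower. In Trem2 WT transplanted cells 7 rose and 1 fell, where 17.3% were called higher and 17.8% lower. For the mitochondrially encoded genes, limma called 0 in each, with 0 at an unadjusted p under 0.05, and edgeR and DESeq2 called 0.

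Sdha was called in both. It had 5988, 6373, 6256 and 6799.8 normalized counts in Trem2 KO transplanted cells and 6785, 6561, 6895 and 7240.1 in Trem2 WT transplanted cells, against 5114, 5599 and 4994 in 5xFAD Trem2 KO microglia. Every transplanted library was above every one of these microglia libraries. The log2 difference was 0.28 (adjusted p = 0.0305) for Trem2 KO and 0.39 (adjusted p = 0.00302) for Trem2 WT transplanted cells. The call for Trem2 KO transplanted cells was lost without S33, S35, S25 or S27 (adjusted p up to 0.12), and the call for Trem2 WT transplanted cells held without any single library.

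Cox6a2 fell in Trem2 KO transplanted cells, to 67.6, 109, 99.1 and 77.6, against 481, 126 and 535 in S25, S26 and S27 (log2 difference -1.87, SE 0.38, adjusted p = 0.00135). In Trem2 WT transplanted cells its log2 difference was -0.98 and did not pass (adjusted p = 0.0557). The other genes that rose in Trem2 WT transplanted cells were Sdhd, the second membrane anchor of complex II, Cox8a, Ndufs7 and the complex V subunits Atp5a1, Atp5b and Atp5d, with log2 differences from 0.28 (Atp5b) to 0.58 (Cox8a). Ndufaf4, an assembly factor of complex I, fell (log2 difference -0.87, SE 0.28, adjusted p = 0.0231). The calls of Sdha, Sdhd and Cox8a held without any single library. Without S25 and S27 only S26 was left of the 5xFAD Trem2 KO microglia. The nuclear median was then 0.23 for Trem2 KO and 0.48 for Trem2 WT transplanted cells, against -0.13 and 0.13 with all libraries. The 11 neutrophil markers summed to 0.0478 to 0.141% of reads in Trem2 KO transplanted cells and 0.0749 to 0.0866% in Trem2 WT transplanted cells, against 0.245 to 0.737% in 5xFAD Trem2 KO microglia, and 10 and 9 of them were called lower, with Elane at 0 in S34 and S29 and Mpo at 0 in S29.

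Other marker lists also had members called in these comparisons, with counts for Trem2 KO given before those for Trem2 WT transplanted cells. Of 10 astrocyte markers 10 and 8 were called lower, and they summed to 0.00445 to 0.00570% of reads in Trem2 KO and 0.00573 to 0.00830% in Trem2 WT transplanted cells, against 0.0316 to 0.0559% in 5xFAD Trem2 KO microglia, with Sox9 at 0 in S33 and S34. Of 9 tested monocyte markers 8 and 8 were called lower, with sums of 0.0124 to 0.0265% of reads in Trem2 KO and 0.0120 to 0.0224% in Trem2 WT transplanted cells, against 0.0405 to 0.104% in 5xFAD Trem2 KO microglia, and Vcan at 0 in S34 and S35. Of 10 microglial markers 6 and 8 were called lower, with sums of 2.94 to 3.58% of reads in Trem2 KO and 2.58 to 3.00% in Trem2 WT transplanted cells, against 5.17 to 6.29% in 5xFAD Trem2 KO microglia. For 10 endothelial markers the counts were 6 and 2 lower and 0 and 1 higher, with sums of 0.00215 to 0.00273% of reads in Trem2 KO and 0.00202 to 0.00806% in Trem2 WT transplanted cells, against 0.00818 to 0.0140% in 5xFAD Trem2 KO microglia, and Cdh5 at 0 in S34, S28 and S29. In contrast 7 and 1 of 11 T and NK cell markers were called higher, with sums of 0.0105 to 0.0241% of reads in Trem2 KO and 0.00186 to 0.0144% in Trem2 WT transplanted cells, against 0.00386 to 0.00957% in 5xFAD Trem2 KO microglia. Oligodendrocyte markers had 1 of 10 called lower in Trem2 KO and 2 called higher in Trem2 WT transplanted cells, with sums of 0.0219 to 0.0302% of reads in Trem2 KO and 0.0336 to 0.106% in Trem2 WT transplanted cells, against 0.0330 to 0.0481% in 5xFAD Trem2 KO microglia. Of 5 tested erythroid markers 4 were called lower in Trem2 KO transplanted cells, with sums of 0.0000784 to 0.00384% of reads in Trem2 KO and 0.00137 to 0.00922% in Trem2 WT transplanted cells, against 0.00932 to 0.0133% in 5xFAD Trem2 KO microglia, and Hbb-bs and Hbb-bt at 0 in S35 and Alas2 in S33 and S35. The part of these cells in the results against 5xFAD Trem2 KO microglia was not tested.

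The difference between the Trem2 differences, that of transplanted cells minus that of 5xFAD microglia, was tested as an interaction. The nuclear median was -0.45, with 79 of 86 genes negative, and the mitochondrially encoded median was -0.47. Over all genes the median was 0.004 in the fit to the compared groups alone. With limma 0 of 86 nuclear genes were called, where 2.82% of all genes were called. Of the nuclear genes 35 had an unadjusted p under 0.05, and the share of all genes at that looser threshold is not given here. edgeR called 1 and DESeq2 called 8 nuclear genes. No mitochondrially encoded gene was called by limma, edgeR or DESeq2, and 0 had an unadjusted p under 0.05. Cox6b2 had the smallest p (log2 difference of differences -2.18, adjusted p = 0.0584). Without S26 the test called 39 nuclear and 2 mitochondrially encoded genes lower, where 1665 of all 12074 genes were called in either direction. Without S25 and S27 only S26 was left of the 5xFAD Trem2 KO microglia, and the medians were -0.14 (nuclear) and 0.90 (mitochondrially encoded). Of 11 neutrophil markers 9 were called lower in the interaction test, and their part in the result was not tested.

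Complex IV has several subunits with a tissue isoform, and each isoform was set beside its ubiquitous partner. Per kilobase, Cox6a2 made up 2.63% ± 0.447 of the sum of Cox6a2 and Cox6a1 in Trem2 KO transplanted cells, 3.53% ± 0.881 in Trem2 WT transplanted cells, 7.96% ± 3.52 in 5xFAD Trem2 KO microglia, 14.3% ± 1.85 in 5xFAD Trem2 WT microglia and 2.40% ± 0.605 in normal microglia (SD, n = 4, 4, 3, 3 and 3). The share of 5xFAD Trem2 WT microglia, 12.9% to 16.4%, was above all other libraries, whose highest value was 10.4% in 5xFAD Trem2 KO microglia. The shares of transplanted cells and normal microglia overlapped. Cox6b2 made up 2.33%, 2.54%, 1.501%, 0.437% and 1.29% of the sum with Cox6b1 in the same order, so the group with the highest Cox6a2 share had the lowest Cox6b2 share. Cox7a1 made up 0.284%, 1.21%, 0.528%, 0.721% and 0.309% of the sum with Cox7a2.

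**Figure D3:**
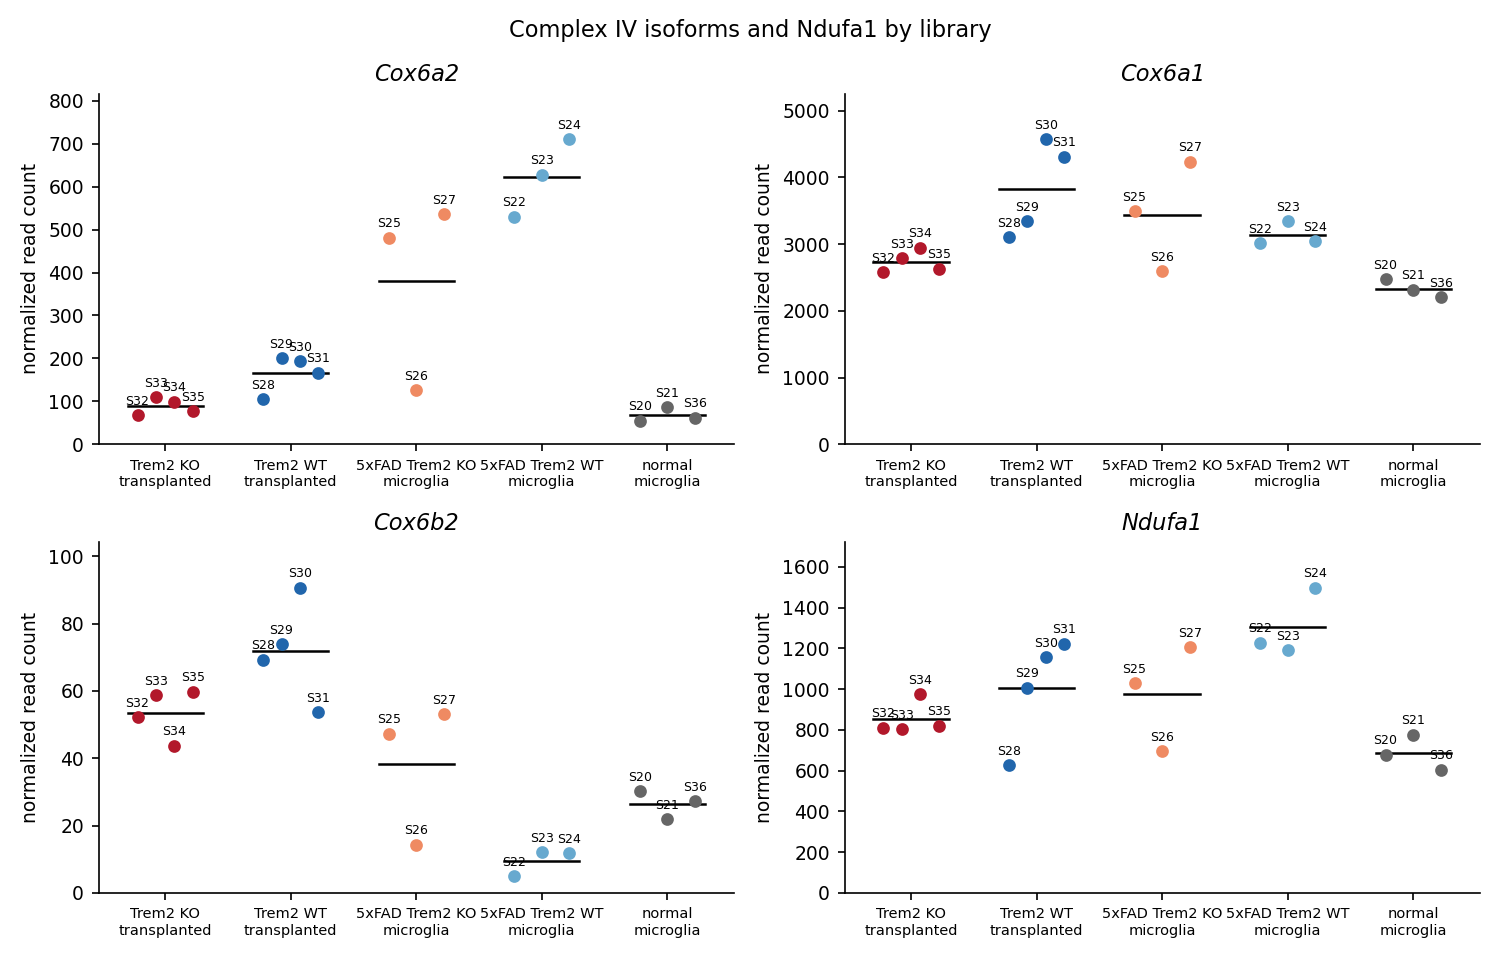
Normalized read count (y axis, from 0) of Cox6a2, Cox6a1, Cox6b2 and Ndufa1 in each library, with a bar at each group mean and group names on the x axis. Cox6a2 lies between 529.6 and 710.4 in 5xFAD Trem2 WT microglia and between 55.3 and 86.6 in normal microglia, while Cox6b2 is lowest in 5xFAD Trem2 WT microglia.

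The plot of these genes by library also places S26 with the transplanted cells for Cox6a2 and near 5xFAD Trem2 WT microglia for Cox6b2. Ndufa4l2, a paralog of Ndufa4 known to be induced by hypoxia, had 0, 0, 2.13 and 1.37 in Trem2 KO transplanted cells, 0, 6.82, 14.5 and 21.9 in Trem2 WT transplanted cells, 7.20, 3.28 and 6.50 in 5xFAD Trem2 KO microglia and 1.97, 5.27 and 11.7 in 5xFAD Trem2 WT microglia, and was listed at 0 in all 3 normal libraries. It passed in no comparison. Ndufa4, first assigned to complex I and now counted with complex IV, had 1185 to 1747, 1009.9 to 2046, 1146 to 2114, 1047 to 1456 and 1326 to 1509.7 in the order of groups used above. Cox8b, the muscle isoform of subunit 8, had at most 12.5 and Cox4i2, the lung-type isoform of subunit 4, at most 10.5 in any library, and neither was tested.

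The mitochondrially encoded genes differed from each other by orders of magnitude. Reads of mt-Co1, mt-Cytb and mt-Nd1 together made up 79.1% to 85.3% of the mitochondrially encoded reads in every library. Of the 13 genes 5, mt-Co2, mt-Atp6, mt-Co3, mt-Nd3 and mt-Nd4l, share over 90% of their 75-base windows with annotated nuclear pseudogenes, which lie within chr1:24612407-24615565 (GRCm38). For mt-Atp6, 604 of 607 windows also occur in Gm10925 (chr1:24613974-24614651), of which 1 is printed above. These 5 genes took 1.79% to 3.85% of the mitochondrially encoded reads, and their means per kilobase over the libraries ran from 7.32 to 515 normalized counts, against 86.4 to 6087 for the other 8 genes. mt-Nd4 shares 61.5% and mt-Co1 39.8% of their windows, while mt-Cytb, mt-Nd1, mt-Nd6 and mt-Atp8 share none with annotated transcripts of other genes. Sequence outside annotated transcripts was not searched. mt-Atp8 (chrM:7766-7969) lies between mt-Co2 and mt-Atp6, whose copies are close together on chromosome 1. A copy of mt-Atp8 in the unannotated gap between them would have been missed. How the authors' counting treated reads that match more than 1 place is not given in the sources used here, so the levels of the shared genes are uncertain.

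**Figure D4:**
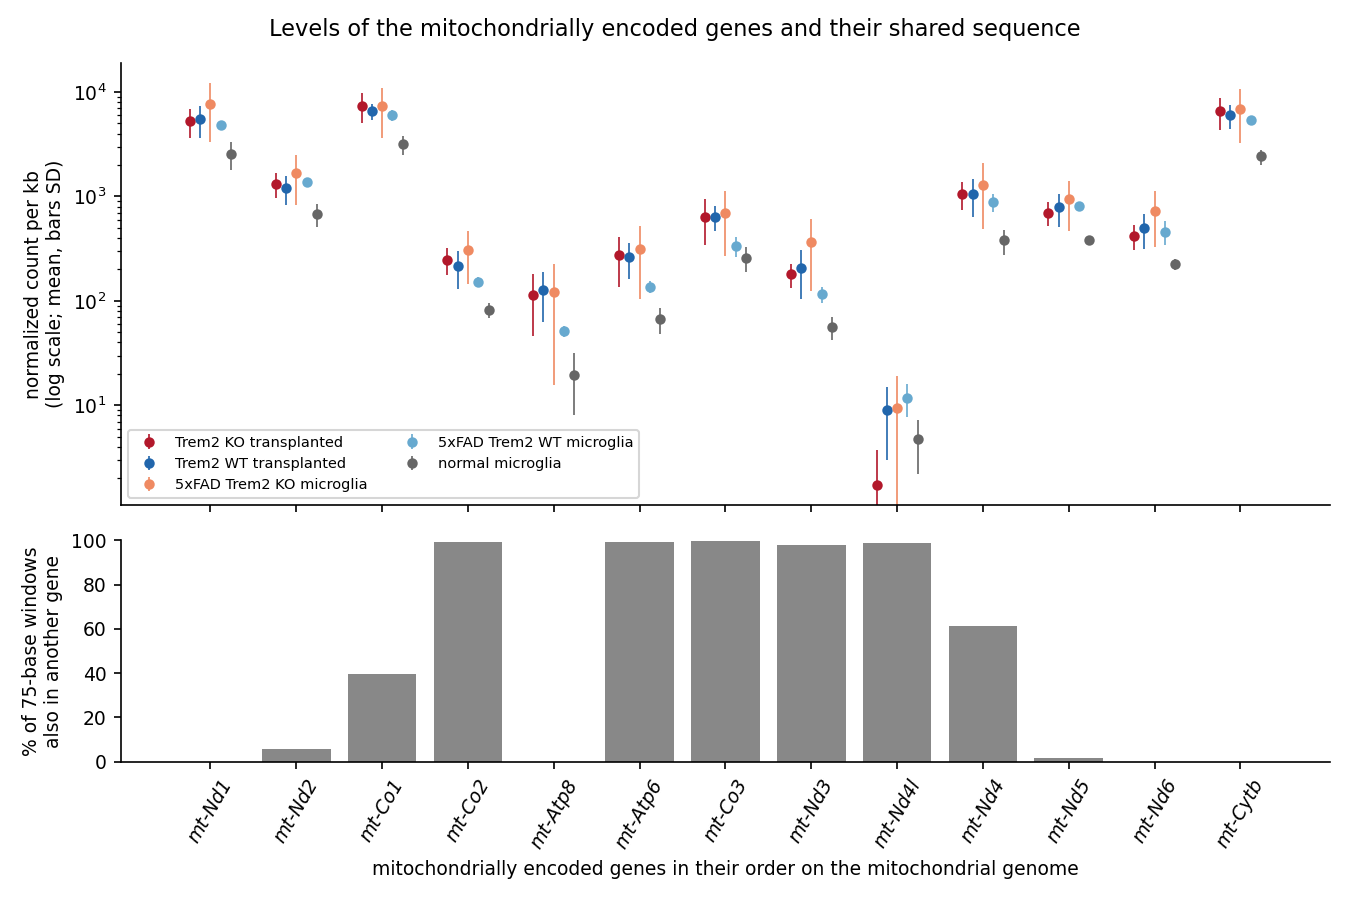
Top, mean normalized count per kilobase (log scale, bars SD over libraries) of the 13 mitochondrially encoded genes in their order on the mitochondrial genome, by group. Bottom, percent of the 75-base windows of each gene that also occur in another annotated transcript, which exceeds 90% for mt-Co2, mt-Atp6, mt-Co3, mt-Nd3 and mt-Nd4l.

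In the plot of levels and sharing, normal microglia have the lowest mean of 12 of the 13 genes, and the exception is mt-Nd4l, where Trem2 KO transplanted cells are lowest. The 4 tested genes that share over 90% of their windows are given for 5xFAD Trem2 WT against normal microglia, beside mt-Nd6. mt-Nd6, which shares none with annotated transcripts of other genes, had 306, 188 and 221 in 5xFAD Trem2 WT microglia, against 123, 128 and 99.7 in normal microglia. It lies on the minus strand, unlike the other mitochondrially encoded genes. This library type does not mark strand, so the count of mt-Nd6 is uncertain too. mt-Co2 had 91.8 to 116, against 49.8 to 66.3 in normal microglia, mt-Atp6 84.7 to 106 against 31.1 to 54.2, and mt-Nd3 32.4 to 46.2 against 14.1 to 23.8. mt-Co3, which shares 99.9%, had 219, 246 and 326, against 217, 249 and 142 in normal microglia. The groups overlapped for mt-Co3 and not for the others. None of the 5 was called.

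Among the nuclear genes, the median difference was further from 0 for shorter than for longer transcripts in the 3 comparisons given here. With the 86 genes split at the median length of 926 bases, the 43 shorter and 43 longer genes had median log2 differences of 0.33 and 0.13 in 5xFAD Trem2 KO against normal microglia (Spearman's rho between length and difference -0.54, Pearson's r -0.25). They had 0.45 and 0.24 in Trem2 WT transplanted cells against 5xFAD Trem2 WT microglia (rho -0.44, r -0.20). In Trem2 KO against Trem2 WT transplanted cells they had -0.28 and -0.16 (rho 0.32, r 0.23). These correlations are across 86 genes measured in the same libraries and are given as a description. The mean log2 level of the shorter genes was 10.07 and 10.21 in S25 and S27, against 9.44 in S26, and that of the longer genes was 10.36 and 10.45, against 10.01. The part of transcript length, or of RNA quality, in the results was not tested.

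**Figure D5:**
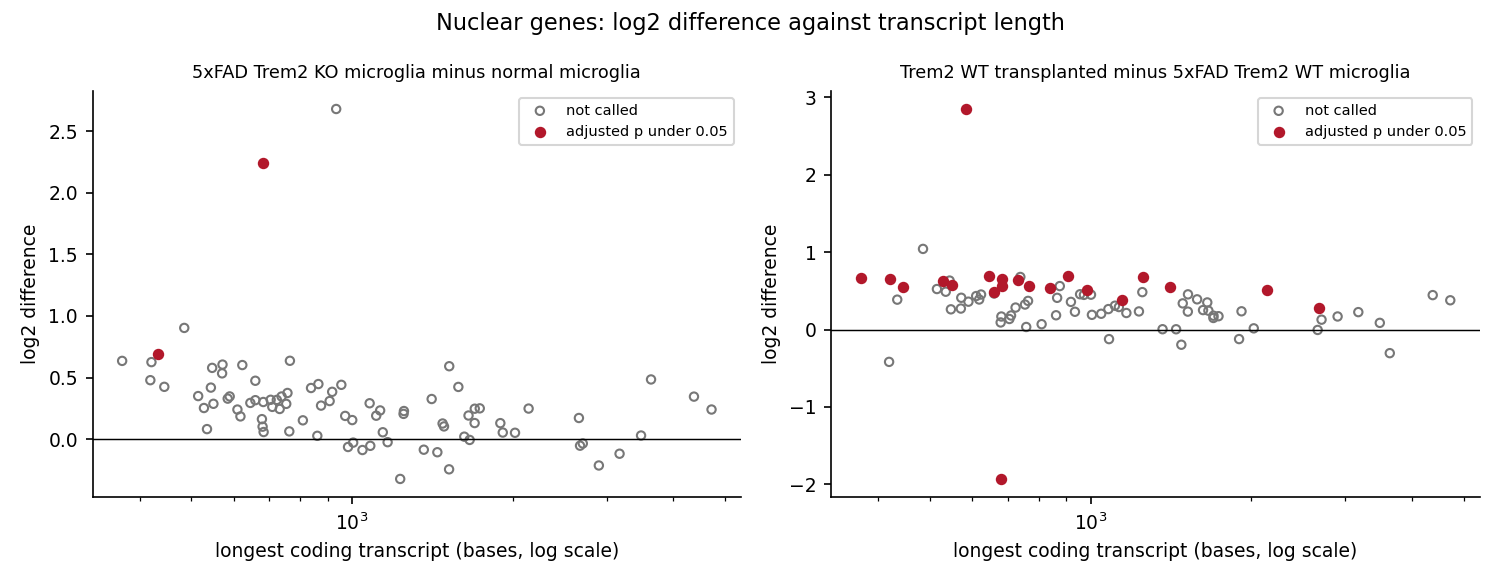
Log2 difference (y axis) of the 86 nuclear genes against the length of the longest coding transcript (x axis, log scale) for 5xFAD Trem2 KO minus normal microglia and for Trem2 WT transplanted cells minus 5xFAD Trem2 WT microglia, with called genes filled. The medians of the shorter and longer genes are 0.33 and 0.13 in the left panel and 0.45 and 0.24 in the right panel.

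Other mitochondrial and metabolic lists were set beside the pathway. In Trem2 WT transplanted cells against 5xFAD Trem2 WT microglia, 13 of 77 mitochondrial ribosomal protein genes rose and 0 fell (median 0.25), and 6 of 8 genes of uncoupling and peroxide or superoxide defence rose (median 0.51), led by Prdx5, a peroxidase (log2 difference 1.44, SE 0.12, adjusted p = 2.94e-08), and Txn2, the mitochondrial thioredoxin (log2 difference 0.76, SE 0.12, adjusted p = 8.21e-05). By contrast 0 of 16 genes of the citric acid cycle and pyruvate oxidation rose and 1 fell, Suclg2, a succinyl-CoA ligase subunit (log2 difference -0.83, SE 0.14, adjusted p = 1.71e-04). The counts stand beside 13.6% of all genes called higher and 14.6% called lower. For the mitochondrial ribosomal protein genes the count of 13 was 5 without S30, 7 without S31, 4 without S22, 8 without S23, 20 without S28 and 3 without both S30 and S31, and for uncoupling and defence the count of 6 was 4 without S22 and 4 without both S30 and S31. Of 43 tested assembly factors 4 rose and 3 fell, of 15 genes of mitochondrial DNA and transcription 0 rose and 1 fell, of 9 biogenesis regulators 0 rose and 1 fell, of 19 membrane and import genes 1 rose and 1 fell, and of 4 electron carriers 1 rose and 0 fell.

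The glycolysis list, which also holds hypoxia-response genes, was set beside the nuclear genes of oxidative phosphorylation. In 5xFAD Trem2 WT against normal microglia, 14 of 21 rose and 0 fell, with a median of 0.66, beside the nuclear oxidative phosphorylation median of 0.02, where 2.83% of all genes were called higher and 0.952% lower. Leaving out 1 library at a time gave 6 (without S24) to 9 (without S20) of the list called higher. Its smallest p-values were those of Egln3, an oxygen-dependent prolyl hydroxylase (log2 difference 4.64, SE 0.51, adjusted p = 1.89e-05), and Slc16a3, a lactate exporter (log2 difference 0.97, SE 0.15, adjusted p = 5.53e-04). In 5xFAD Trem2 KO against 5xFAD Trem2 WT microglia 1 gene of the list rose and 4 fell (median -0.37), led by the glucose transporter Slc2a1 (log2 difference -1.20, SE 0.16, adjusted p = 1.34e-04), where 2.5% of all genes were called higher and 2.59% lower. Without S25 and S27, which leaves S26 alone among the 5xFAD Trem2 KO microglia, the median of the list was -0.51. With all libraries edgeR called 1 higher and 4 lower and DESeq2 called 1 higher and 7 lower. In Trem2 KO against Trem2 WT transplanted cells 0 rose and 11 fell (median -0.50), among them Slc16a3 (log2 difference -0.87, SE 0.13, adjusted p = 0.00243) and Aldoa, an aldolase (log2 difference -0.81, SE 0.13, adjusted p = 0.00523), where 2.99% of all genes were called higher and 3.75% lower. These calls depended on the libraries kept. Without S30, without S31 and without both, limma called 5, 5 and 0 of the list lower. In these fits the list median was -0.42, -0.41 and -0.27, and 14, 14 and 6 genes were lower at an unadjusted p under 0.05. Over all genes, the 814 calls were 113 without S30, 113 without S31 and 20 without both. With all libraries edgeR called 10 of the list lower and DESeq2 14, and limma called 6 without S33, 6 without S34, 7 without S35, 2 with the compared groups alone and 1 with the closest libraries averaged. The same fits called 1027, 1695, 396, 175, 469, 67 and 30 of all genes in either direction, in that order. The astrocyte list also holds Aldoc, and the oligodendrocyte markers given above moved with S30 and S31. Their part in the result was not tested. In Trem2 WT transplanted cells against 5xFAD Trem2 WT microglia 3 rose and 7 fell, with Pfkp, a phosphofructokinase, higher (log2 difference 2.15, SE 0.18, adjusted p = 5.47e-08) and Pdk1, a kinase that inhibits pyruvate dehydrogenase, lower (log2 difference -1.07, SE 0.12, adjusted p = 1.18e-06). Of all genes 13.6% were called higher and 14.6% lower. Without S30 and S31, 2 of the list rose and 9 fell, where 2302 of all 12074 genes were called in either direction. The difference between lists was not tested.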

How the data were processed

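RNA of sorted CD45+CD11b+ mouse brain cells was sequenced after SMART-Seq v4 amplification, per the labels' protocols. The submitters' processing notes name bcl2fastq, STAR 2.5.2b, HTSeq, RSEM and DESeq2 3.17, with mm10 and GRCm38.p6. The sources used here do not say which of HTSeq and RSEM gave the values, nor the annotation. The deposited table holds 1 signal value per gene and library, a normalized count, which the authors made by dividing read counts by 1 factor per library, as the values show: in each library 99.985% to 100% of values were whole multiples of 1 read within 0.02 normalized counts.

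The main test was limma 3.58.1 in R 4.3.3 on log2(value + 1), for genes with 10 or more in at least 3 libraries, with all libraries in 1 fit, a trended variance prior, two-sided tests and Benjamini-Hochberg adjustment over 12074 genes. Count tests on the recovered reads were alternatives: edgeR 4.0.16 called 458, 443, 569, 1027, 3409, 3036, 4180 and 402 genes and DESeq2 1.42.0 called 756, 1266, 997, 1695, 3870, 3491, 4659 and 875, against 457, 472, 615, 814, 3399, 3062, 4238 and 341 by limma. The comparisons stand in the order 5xFAD Trem2 WT minus normal, 5xFAD Trem2 KO minus normal, 5xFAD Trem2 KO minus 5xFAD Trem2 WT, Trem2 KO minus Trem2 WT transplanted, Trem2 WT transplanted minus 5xFAD Trem2 WT, Trem2 KO transplanted minus 5xFAD Trem2 KO, Trem2 WT transplanted minus 5xFAD Trem2 KO, and the interaction. The limma fit was checked on simulated data for each comparison except the interaction, and the count fits were not checked in this way.

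Columns were matched to samples or groups by their names, and the column numbers name libraries only. Other alternatives were pseudocounts of 0.5 and 5, no filter, the compared groups alone, TMM and upper-quartile scaling, array weights, leaving out each library, and averaging libraries whose counts differed by a chi-square per degree of freedom under 12. Shared sequence was the share of a gene's 75-base windows found in transcripts of other GENCODE vM21 genes. Genes named were those with the smallest p in each class, a fixed set of core genes and the complex IV isoform pairs, and from other lists the 2 with the smallest p. The named genes, the rule for the members and the lists were set with earlier results of these data known, though the rule itself reads only gene names.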

Additional observations from a re-analysis of the deposited data

Results flagged for a closer look

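In each group of 4 libraries, the transplanted groups, the highest and the lowest value of each of the 101 genes and of the 2 mean scores were set against the other values, and 5 of 206 such groups had a value that stood apart by Dixon's criterion. Chance alone marks about 1 in 20. Cox8b, the muscle isoform of complex IV subunit 8, had 12.5 normalized counts in S29 of the Trem2 WT transplanted cells, against 1.12, 1.31 and 0 in S28, S30 and S31. Ndufa1, an accessory subunit of complex I, had 976 normalized counts in S34 of the Trem2 KO transplanted cells, against 811, 803 and 821 in S32, S33 and S35. Ndufv2, a core subunit of complex I, had 1646 in S34 of the Trem2 KO transplanted cells, against 1221, 1185 and 1186 in S32, S33 and S35. Ndufb3, an accessory subunit of complex I, had 616 in S28 of the Trem2 WT transplanted cells, against 803, 793 and 809 in S29, S30 and S31. Ndufaf5, an assembly factor of complex I, had 63.4 in S31 of the Trem2 WT transplanted cells, against 89.5, 89.8 and 90.7 in S28, S29 and S30.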

How the results depend on the processing

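Counts of genes called over 86 nuclear and 12 mitochondrially encoded genes moved with the model more than the medians did. In 5xFAD Trem2 WT minus normal microglia, the nuclear count of 2 was 9 with the compared groups alone, 12 with array weights and 1 with the closest libraries averaged, and the mitochondrially encoded count of 0 was 9, 10 and, with DESeq2, 1. All genes had 1757 calls with the compared groups alone, 2227 with array weights, 245 with the closest libraries averaged and 756 with DESeq2. In 5xFAD Trem2 KO minus normal microglia, the nuclear count of 2 was 1 with no filter, 0 with the compared groups alone, 9 with DESeq2, 58 with array weights and 0 with the closest libraries averaged, and the mitochondrially encoded count of 2 was 0, 0, 12, 12 and 0, and 8 with edgeR. Calls over all genes were 311, 1, 1266, 6080 and 22 in the same order, and 443 with edgeR. In 5xFAD Trem2 KO minus 5xFAD Trem2 WT microglia, the nuclear count of 1 was 2 with no filter, 0 with the compared groups alone, 62 with array weights and 0 with the closest libraries averaged, and the mitochondrially encoded count of 0 was 1 with DESeq2 and 12 with array weights. Among all genes, no filter gave 606 calls, the compared groups alone 278, array weights 5856, averaging 165 and DESeq2 997. In Trem2 KO minus Trem2 WT transplanted cells, the nuclear count of 2 was 0 with the compared groups alone, 1 with TMM, 1 with edgeR, 9 with DESeq2, 62 with array weights and 0 with the closest libraries averaged. The calls over all 12074 genes were 67 with the compared groups alone, 1027 with edgeR and 1695 with DESeq2. They were 3447 with array weights and 30 with the closest libraries averaged. For Trem2 WT transplanted cells minus 5xFAD Trem2 WT microglia, the nuclear count of 21 was 34 with DESeq2, 67 with array weights and 6 with the closest libraries averaged, and the mitochondrially encoded count of 0 was 1 with the compared groups alone and 5 with array weights. All genes had 3870 calls with DESeq2, 6274 with array weights, 2013 with averaging and 3963 with the compared groups alone. In Trem2 KO transplanted cells minus 5xFAD Trem2 KO microglia, the nuclear count of 2 was 1 with the compared groups alone, 4 with DESeq2, 49 with array weights and 1 with the closest libraries averaged, and the mitochondrially encoded count of 0 was 10 with array weights. Calls over all genes were 2138, 3491, 6477 and 2101 in the order of the nuclear counts. For Trem2 WT transplanted cells minus 5xFAD Trem2 KO microglia, the nuclear count of 8 was 1, 25 and 1 with the compared groups alone, array weights and the closest libraries averaged, and the mitochondrially encoded count of 0 was 4 with array weights. Among all genes these settings gave 2644, 6996 and 2109 calls. For the interaction, the nuclear count of 0 was 1 with no filter, 1 with edgeR, 8 with DESeq2 and 70 with array weights, and the mitochondrially encoded count of 0 was 10 with array weights. All genes had 355 calls with no filter, 402 with edgeR, 875 with DESeq2 and 4538 with array weights.

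Leaving out S25 with S27, or S30 with S31, was chosen after seeing the data. Without S25 and S27 only S26 was left of the 5xFAD Trem2 KO microglia, so medians alone are given. The mitochondrially encoded median was 0.10 in 5xFAD Trem2 KO minus normal microglia and -0.93 in 5xFAD Trem2 KO minus 5xFAD Trem2 WT microglia. The nuclear median was 0.23 in Trem2 KO transplanted cells minus 5xFAD Trem2 KO microglia. Without S30 and S31, the nuclear calls were 0 in Trem2 KO minus Trem2 WT transplanted cells, 5 in Trem2 WT transplanted cells minus 5xFAD Trem2 WT microglia and 1 in Trem2 WT transplanted cells minus 5xFAD Trem2 KO microglia. Of all 12074 genes 20, 2302 and 2726 were called in these fits.

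Leaving out 1 library at a time gave these ranges. In 5xFAD Trem2 WT minus normal microglia there were 1 to 2 nuclear calls (median -0.01 to 0.05) and 0 to 0 mitochondrially encoded calls (median 0.96 to 1.16). In 5xFAD Trem2 KO minus normal microglia there were 0 to 42 (0.11 to 0.46) and 0 to 12 (1.06 to 2.07). In 5xFAD Trem2 KO minus 5xFAD Trem2 WT microglia there were 0 to 32 (0.11 to 0.42) and 0 to 7 (-0.01 to 1.09). In Trem2 KO minus Trem2 WT transplanted cells there were 0 to 19 (-0.37 to -0.17) and 0 to 0 (-0.31 to 0.23). For Trem2 WT transplanted cells minus 5xFAD Trem2 WT microglia there were 8 to 47 (0.26 to 0.45) and 0 to 0 (-0.01 to 0.46). In Trem2 KO transplanted cells minus 5xFAD Trem2 KO microglia there were 1 to 19 (-0.30 to 0.01) and 0 to 5 (-0.79 to 0.27). In Trem2 WT transplanted cells minus 5xFAD Trem2 KO microglia there were 4 to 16 (-0.08 to 0.26) and 0 to 7 (-0.85 to 0.18). For the interaction there were 0 to 39 (-0.63 to -0.37) and 0 to 2 (-1.14 to -0.02). Calls over all 12074 genes ran, in the same order of comparisons, from 272 to 325, 47 to 4600, 297 to 3666 and 113 to 1881. For the later comparisons they ran from 2395 to 3742, 2269 to 4516, 2743 to 5879 and 185 to 1665.

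Of the alternative values of single genes, 3495 kept their side of the threshold and 186 passed it where the fit with all libraries did not. The others lost it. For genes called with all libraries, 0 values changed direction, and changes of direction in genes not called there were not counted. The cause of these differences was not tested. No paired analysis was possible because the columns outside the normal group carry no replicate number that could pair them. With 1 read worth up to 1.31 normalized counts, differences in Cox7a1, Cox8b, Cox4i2, Ndufa4l2 and mt-Nd4l rest on few reads.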

Other observations

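Lars2, the leucyl-tRNA synthetase of mitochondria, is no gene of the rule and was looked at after its values were seen. Its sequence was not searched for stretches shared with other genes, so what its reads come from is uncertain. It had 136006, 152934, 179990.0 and 164234 normalized counts in Trem2 KO transplanted cells, 234652, 97636, 228094 and 205758 in Trem2 WT transplanted cells, 290419, 148254 and 365824 in S25, S26 and S27 of the 5xFAD Trem2 KO microglia, 110302, 116786 and 86392 in 5xFAD Trem2 WT microglia and 93539, 129607 and 73669.6 in normal microglia. S25 and S27 were the highest of all libraries, and they were also the libraries with the most mitochondrially encoded reads.

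Marker lists of other cells were measured in the same libraries. Of 10 astrocyte markers 1 was called higher in 5xFAD Trem2 WT against normal microglia, 2 were called lower in Trem2 KO against Trem2 WT transplanted cells and 4 were called lower in Trem2 WT transplanted cells against 5xFAD Trem2 WT microglia. Of all genes 2.83%, 3.75% and 14.6% were called in these directions. Of 6 tested neuronal markers 1 was called higher in that last comparison, where 13.6% of all genes were called higher.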
